A study of Drosophila melanogaster with 12 samples.

Results

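Gapdh1, Tpi, Eno, Taldo, Gbs-70E and Miox are 6 Drosophila genes of glycolysis, the pentose phosphate pathway, glycogen control and inositol breakdown. They were taken by name from the probe annotation, updated through Entrez identifiers, as probes with 1 gene symbol. They hold 9 of the 13824 probes on the array and 6 of the 6793 genes that such probes name. Gapdh1, Tpi and Gbs-70E each have another probe besides the one on the most arrays, which stands for the gene here.

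Glycolysis splits glucose into pyruvate and yields ATP and NADH. Tpi, triose phosphate isomerase, interconverts the triose phosphates that aldolase makes. Gapdh1, glyceraldehyde 3-phosphate dehydrogenase, takes the next step, and Eno, enolase, forms phosphoenolpyruvate near the end of the path. Taldo, transaldolase, belongs to the non-oxidative branch of the pentose phosphate pathway, whose oxidative branch makes NADPH. Gbs-70E is a glycogen-binding subunit that brings protein phosphatase 1 to glycogen, where dephosphorylation turns glycogen synthase on. Miox, myo-inositol oxygenase, opens the ring of inositol to give glucuronate. Nervous tissue draws most of its ATP from sugar, and in flies glia feed neurons with products of glycolysis.

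The samples were pooled heads of unmated adult Oregon-R males, a wild-type strain with no added allele. The flies ate food with 8 mg/ml pentylenetetrazole (PTZ), which in mammals provokes seizures by blocking GABA receptors, together with 5 mg/ml levetiracetam (LEV), an antiepileptic drug. Controls ate normal food, at 30 flies per vial. Heads were taken after 12 h and 2 d on both drugs and on day 7, after 4 d on both drugs and 3 d on PTZ alone. The sample protocols name PTZ for those last days, while the series text in 1 place names LEV. Flies started treatment at 3 to 4 days old by most labels, but the growth protocol could add days to that, so their age stayed unsettled. No group had PTZ alone or LEV alone from the start, so the drugs' separate shares cannot be told apart. A head pool mixes brain, retina, fat body, muscle and other cells, so fewer cells of a type and less RNA per cell cannot be told apart.

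Each of the 12 two-colour cDNA arrays set a treated pool against its own control pool, with 4 biological replicates at each of 3 times. The treated sample carried the dye Cy5 in replicates 1 and 2 and Cy3 in replicates 3 and 4. The values were log2 ratios of the dyes, averaged over the 2 adjacent spots of a probe and centred on each array's median. Their direction was not stated. The signs of the Cy3 arrays were therefore turned, so that a value above 0 is more RNA in treated heads if the file holds Cy5 over Cy3. If the file already held treated over control, the values as deposited apply, and means in that orientation are given beside the turned ones. On replicates 1 and 2 both readings are the same. A file of Cy3 over Cy5, or of control over treated, was not considered and would reverse the signs of replicates 1 and 2 as well.

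The arrays differed widely in how much they measured, from 1394 to 14042 of 27648 spots, and 8465 probes had a value on any array. Over all probes with both spots on an array, the correlation of those spots ran only from 0.10 to 0.50 between arrays. Their median difference was largest on replicate 3 of 12 h, at 0.748 log2 units. Replicate 2 of 2 d had the widest spread of ratios, with an interquartile range of 1.77 log2 units, and replicate 4 of 7 d had the most spots. Turned means per time that change sign, or move by over 1.5 times, without either are given without it. The gene set's array values had closer spots: their 67 pairs differed by a median of 0.157 log2 units, against 0.38 over all 21403 pairs.

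**Figure D1:**
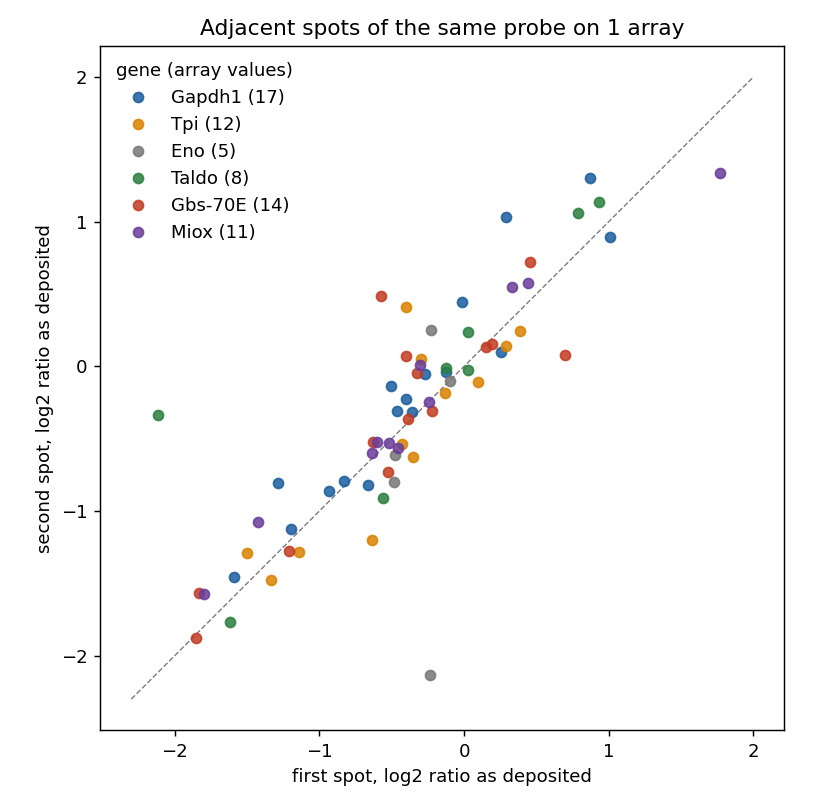
Each point is 1 probe of the 6 genes on 1 array, with the log2 ratio of the first spot on the x axis and of the adjacent spot on the y axis, as deposited and before centring, and the dashed line marks equal values. Most of the 67 points lie near the line. The pairs farthest apart were 1 of Eno, with a difference of 1.897, and 1 of Taldo, with a difference of 1.782.

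Gbs-70E and Miox were each measured on 11 of 12 arrays, Tpi on 10, Gapdh1 on 9, Taldo on 8 and Eno on 5. Of all probes on the array, 4.32% were measured on 11 or more and 9.93% on 5 or more. Eno had no value at 7 d, and Gapdh1, Tpi and Taldo had 2 arrays there, so none of these was tested at 7 d with those probes. A probe was tested at a time when at least 3 arrays measured it, with limma across all such probes and Benjamini-Hochberg adjustment.

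No probe of any gene passed at an adjusted p of 0.05 at any time. At 12 h, 0 of 1283 probes passed (0%), while 58 had an unadjusted p under 0.05, which is 4.52%. At 2 d, 0 of 1001 passed (0%), with 16 below that unadjusted level, or 1.6%. At 7 d, 0 of 865 passed (0%), with 34 below it, or 3.93%. With the values as deposited limma also called 0 probes at each time, with 103, 133 and 69 at an unadjusted p under 0.05 at 12 h, 2 d and 7 d, or 8.03%, 13.3% and 7.98%. A SAM-type test with all sign flips of the arrays called 0 probes at each time, but with 4 arrays it could call none. Its flips include the observed signs and their full reversal, which keep every absolute statistic. Its false discovery rate could therefore not fall under 0.05. None of the tested probes of the 6 genes had an unadjusted p under 0.05 at any time. What follows is therefore a description of levels, in which a value near 0 or a mean that misses the test does not show that a gene was unaffected.

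**Figure D2:**
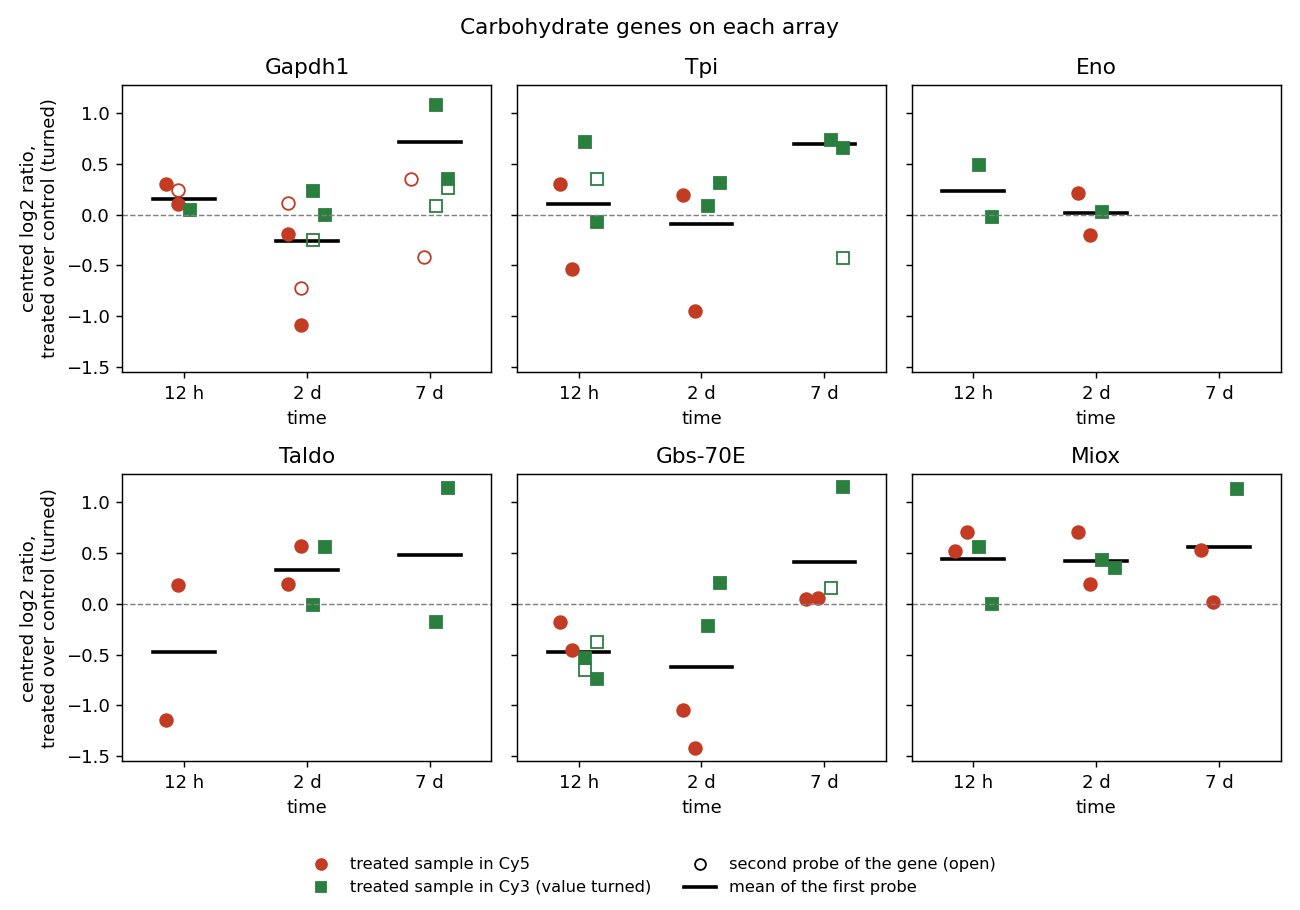
Each panel is 1 gene, with time on the x axis and the centred log2 ratio on the y axis, turned to treated over control; circles are arrays with the treated sample in Cy5, squares those with it in Cy3, open symbols the gene's other probe, and bars the mean of the probe on the most arrays. Gbs-70E lies below 0 on all 4 arrays of 12 h and far below on the Cy5 arrays of 2 d, while Miox, centred on array medians, lies at or above 0 on all 11 arrays.

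Gapdh1 stood near the array medians at 12 h. It read 0.30, 0.11 and 0.05 on replicates 1, 2 and 3, a mean of 0.15 ± 0.13 (SD, n = 3; limma adjusted p = 0.942). All 3 arrays were above 0, as were 9.6% of the probes measured on 3 arrays of 12 h. Without centring all 3 were also above 0, with a mean of 0.64, so the small size of the mean rests on the centring. At 2 d it read −0.19, −1.08, 0.24 and −0.01 on replicates 1 to 4, a mean of −0.26 ± 0.58 (SD, n = 4; limma adjusted p = 0.995). That mean rests on replicate 2, and without it the mean was 0.014. At 7 d the values were 1.08 on replicate 3 and 0.35 on replicate 4, both with the treated sample in Cy3, so their sign hangs on the direction of the ratios. As deposited, the means were 0.12 ± 0.17 at 12 h and −0.37 ± 0.48 at 2 d (SD), and the 7 d values −1.08 and −0.35.

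The other Gapdh1 probe was the only one of the 9 probes read on all arrays of 7 d. It read 0.35, −0.41, 0.08 and 0.26 there, a mean of 0.07 ± 0.34 (SD, n = 4; limma adjusted p = 0.966), with the arrays on both sides of 0. Without replicate 4 that mean was 0.0073. On replicate 3 of 7 d the 2 probes of the gene stood 1.08 and 0.08 from the array's median, and the other probe's spots differed by 0.74 there. At 2 d this probe read 0.12, −0.72 and −0.25 on replicates 1 to 3, a mean of −0.29 ± 0.42 (SD, n = 3; limma adjusted p = 0.995). Both probes were thus lowest on replicate 2 of 2 d. Without that array the mean was −0.07. At 12 h its only value was 0.24, on replicate 2. As deposited, its means were −0.12 ± 0.53 at 2 d and −0.10 ± 0.33 at 7 d (SD). A cDNA probe of Gapdh1 may also take up RNA of the close paralog Gapdh2, which no probe with 1 symbol names, so these values may hold both.

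Tpi had no common direction over the arrays when centred. At 12 h it read 0.30, −0.53, 0.71 and −0.08 on replicates 1 to 4, a mean of 0.10 ± 0.53 (SD, n = 4; limma adjusted p = 0.968). Without centring all 4 arrays of 12 h were above 0, with a mean of 0.61. At 2 d it read 0.19, −0.95, 0.08 and 0.31, a mean of −0.09 ± 0.58 (SD, n = 4; limma adjusted p = 0.995). As in Gapdh1, replicate 2 of 2 d was the lowest array, and without it the mean was 0.20. At 7 d Tpi read 0.74 on replicate 3 and 0.66 on replicate 4, close to each other but again only on Cy3 arrays. As deposited, the means were −0.22 ± 0.48 at 12 h and −0.29 ± 0.49 at 2 d (SD). The other Tpi probe was read on 2 arrays, at 0.36 on replicate 4 of 12 h and −0.43 on replicate 4 of 7 d. On the latter array the probes of the gene stood on opposite sides of the array's median.

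Eno was the least measured of the set. At 2 d it read 0.21, −0.20 and 0.02 on replicates 1 to 3, a mean of 0.01 ± 0.21 (SD, n = 3; limma adjusted p = 0.995), and −0.00 ± 0.21 as deposited. Its arrays lay on both sides of 0, within 0.21 of it, and without replicate 2 the mean was 0.12. At 12 h it read 0.49 on replicate 3 and −0.02 on replicate 4. The first of these averages spots of −0.23 and −2.13 on the deposited scale, a gap of 1.897, and so says little about enolase RNA.

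Taldo was read above or close to 0 on the arrays of 2 d. It stood at 0.20, 0.57, −0.01 and 0.56 on replicates 1 to 4, a mean of 0.33 ± 0.29 (SD, n = 4; limma adjusted p = 0.995), which is a ratio of 1.26. On both Cy5 arrays of 2 d, which read the same in both orientations given here, it was above 0, as were 26.7% of the probes on both. As deposited, its 2 d mean was 0.05 ± 0.47 (SD). At 12 h Taldo read −1.14 on replicate 1 and 0.19 on replicate 2. The low value averages spots of −2.12 and −0.33 on the deposited scale, so it turns on 1 spot. At 7 d it read −0.18 and 1.14 on replicates 3 and 4, on opposite sides of 0.

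Gbs-70E had the lowest tested means of the set at 12 h and 2 d. At 12 h it read −0.18, −0.46, −0.53 and −0.74 on replicates 1 to 4, a mean of −0.48 ± 0.23 (SD, n = 4; limma adjusted p = 0.867). All 4 arrays were below 0, as were 9.79% of the probes on 4 arrays of 12 h, and the mean ratio was 0.718. Without centring 2 arrays were above and 2 below, with a mean of 0.028. Of all probes tested at 12 h, 18.0% had a lower mean. Its other probe was read on replicates 3 and 4 of 12 h, at −0.65 and −0.38, on the same side as the main probe on those arrays. As deposited, the Cy3 arrays changed sign and the 12 h mean was 0.16 ± 0.57 (SD).

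At 2 d Gbs-70E read −1.04, −1.42, −0.22 and 0.21 on replicates 1 to 4, a mean of −0.62 ± 0.75 (SD, n = 4; limma adjusted p = 0.995). The Cy5 arrays stood far below the Cy3 arrays, and each pair of spots on the 4 arrays differed by at most 0.066. The mean of the Cy5 arrays was −1.23, and 5.26% of the 1045 probes on both of them had a mean of −1 or lower. Since the Cy3 values nearly cancelled, the mean as deposited was almost the same, at −0.61 ± 0.75 (SD; limma adjusted p = 0.469). Without replicate 2 the turned mean was −0.35. A fit with a constant dye part beside the treatment part put them at −0.61 and −0.62 at 2 d, so both parts were of like size in this gene, and neither passed (limma adjusted p = 0.452 and 0.999).

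At 7 d, after the change to PTZ alone, Gbs-70E read 0.05, 0.06 and 1.15 on replicates 1, 2 and 4. All 3 were above 0, as were 16% of the probes on 3 arrays of 7 d, and the mean was 0.42 ± 0.63 (SD, n = 3; limma adjusted p = 0.923). Replicate 4 stood apart, and without it the mean was 0.05. Without centring 1 of the 3 was above 0, and centred on the probes of at least 9 arrays 2 were. As deposited the 7 d mean was −0.35 ± 0.69 (SD). The other probe read 0.15 on replicate 3. On replicate 4 of 7 d the deposited means of Taldo, Gbs-70E and Miox were nearly equal, at −1.69, −1.70 and −1.68, against an array median of −0.55.

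When turned, Miox was the gene most often read above 0. At 12 h it read 0.52, 0.71, 0.56 and 0.00 on replicates 1 to 4, a mean of 0.45 ± 0.31 (SD, n = 4; limma adjusted p = 0.867), or a ratio of 1.36. At 2 d it read 0.71, 0.20, 0.43 and 0.36, a mean of 0.42 ± 0.21 (SD, n = 4; limma adjusted p = 0.995). All 4 arrays of 2 d were above 0, as were 2.3% of the probes on 4 arrays. At 7 d it read 0.53, 0.01 and 1.13 on replicates 1, 2 and 4, a mean of 0.56 ± 0.56 (SD, n = 3; limma adjusted p = 0.923). Replicate 2 was close to 0 there, and without replicate 4 the mean was 0.27. As deposited the means were 0.17 ± 0.57, 0.03 ± 0.53 and −0.20 ± 0.85 at 12 h, 2 d and 7 d (SD).

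Miox was at or above 0 on all 11 arrays when turned, with 10 above and replicate 4 of 12 h at 0. This count rests on the centring: without centring 8 arrays were above and 3 below, and centred on the probes of at least 9 arrays, 1 array of 2 d and 1 of 7 d were below. Of the 228 probes on 11 arrays, 2 were at or above 0 on all, or 0.877%. Its mean over the 11 arrays was 0.47 ± 0.33 (SD; limma adjusted p = 0.969 over 843 probes on at least 9 arrays), and 92.6% of those probes had a lower mean. It was among the 38 of them with an unadjusted p under 0.05 in limma, which are 4.51%. On the 6 Cy5 arrays alone, which read the same in both orientations, Miox was above 0 on all when centred on array medians, with a mean of 0.45. Of the 502 probes on all 6, 4.58% did the same. Before centring Miox read 0.44 and 1.55 on the Cy5 arrays of 12 h. It then read 0.51 and −0.24 on those of 2 d, and −0.15 and −0.62 on those of 7 d. The Cy5 count thus rests on the centring too. On the 5 Cy3 arrays, centred and as deposited, Miox was below 0 on 4 and at 0 on 1, with a mean of −0.50. As deposited its mean over all arrays was therefore 0.02 ± 0.59 (SD; limma adjusted p = 0.967).

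**Figure D3:**
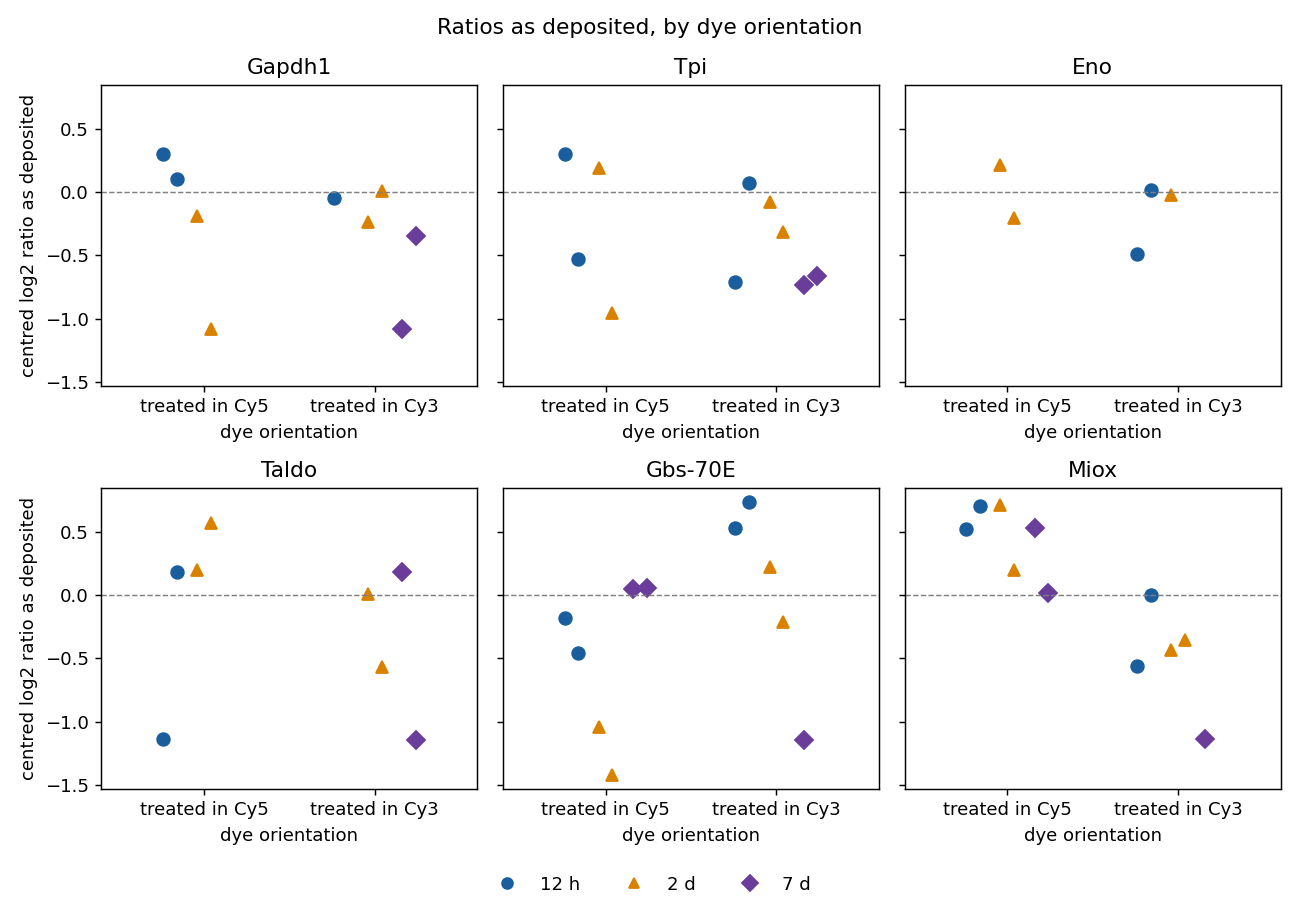
Centred log2 ratios as deposited, with arrays split on the x axis by the dye of the treated sample and marked by time, 1 panel per gene. Miox is above 0 on all 6 Cy5 arrays and at or below 0 on all 5 Cy3 arrays, while Tpi is below 0 on most Cy3 arrays and on both sides of 0 on the Cy5 arrays.

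The genes thus differed in how their signs followed the dyes. When centred, Gbs-70E was below 0 on both Cy5 arrays of 12 h, as were 30.3% of the probes on both, and on both Cy5 arrays of 2 d, as were 26.8%. On both Cy5 arrays of 7 d it was just above 0 when centred, as were 31% of probes there. Tpi, as deposited, was below 0 on 5 of its 6 Cy3 arrays, with a mean of −0.40, and had a mean of −0.25 on its 4 Cy5 arrays. Gapdh1, as deposited, was below 0 on 4 of 5 Cy3 arrays, with a mean of −0.34, and its mean on the 4 Cy5 arrays was −0.22. For both genes the sign at 2 d differed between orientations when turned: Gapdh1 had means of −0.63 on Cy5 and 0.11 on Cy3 arrays, and Tpi of −0.38 and 0.20.

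Over all arrays, Gapdh1 had a turned mean of 0.09 ± 0.57 (SD, n = 9; limma adjusted p = 0.981), Tpi of 0.14 ± 0.55 (SD, n = 10; limma adjusted p = 0.978) and Gbs-70E of −0.29 ± 0.69 (SD, n = 11; limma adjusted p = 0.978). As deposited they were −0.29 ± 0.49, −0.34 ± 0.44 and −0.26 ± 0.70 (SD), with limma adjusted p = 0.421, 0.268 and 0.518. The reading of the ratios mattered for the arrays as a whole. When turned, 0 of the 843 probes passed (0%), with 38 at an unadjusted p under 0.05 in limma, or 4.51%. As deposited, 29 probes passed, or 3.44%, with 186 at an unadjusted p under 0.05, or 22.1%, and none of the 6 genes was among the 29.

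**Figure D4:**
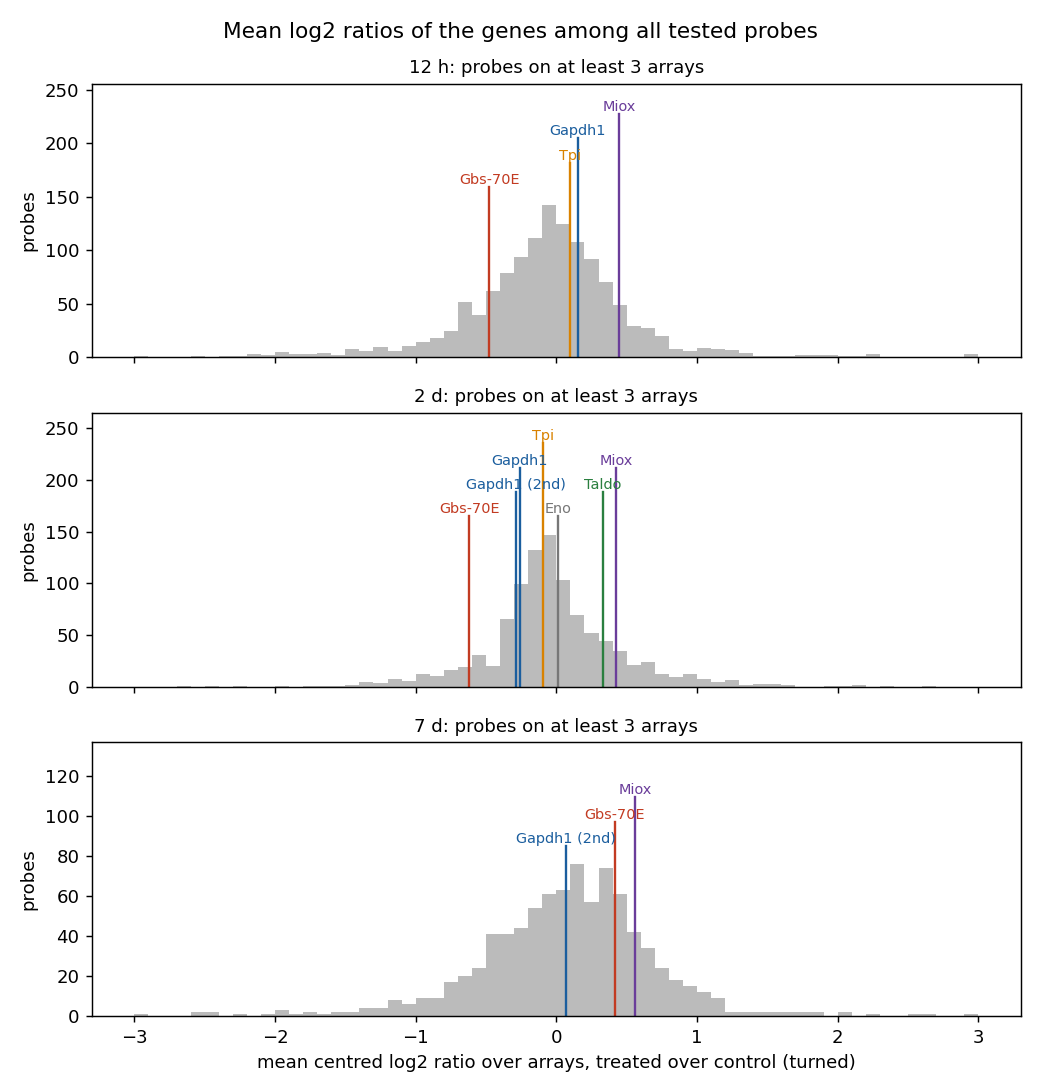
Histograms of the mean centred log2 ratio, turned to treated over control, of all probes on at least 3 arrays at 12 h, 2 d and 7 d, with the number of probes on the y axis and labelled lines at the means of the 6 genes. The lines stand within the bulk of the probes, with Gbs-70E toward the lower side at 12 h and 2 d and Miox toward the upper side at all times.

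Set among all tested probes by turned mean, Gbs-70E was the lowest of the set at 2 d, where 8.29% of the tested probes were lower, followed by the Gapdh1 probes with 21.9% and 23.9%. Tpi and Eno lay nearer the middle at 2 d, with 44.8% and 59.5% of probes lower. Taldo and Miox stood nearly level, with 82.4% and 85.7%. At 12 h, 87.7% had a lower mean than Miox. As deposited, 54.1% were lower than Miox and 56.1% lower than Taldo at 2 d. The middle 90% of probe means ran from −1.02 to 0.76 at 12 h and from −0.82 to 0.89 at 2 d, which holds all tested genes of the set.

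In order of their turned means, Gbs-70E was lowest at 2 d, then 12 h, then 7 d. The step from 12 h to 2 d was −0.14 (SE 0.51; limma adjusted p = 0.997) and that from 2 d to 7 d 1.04 (SE 0.55; limma adjusted p = 0.984). The difference from 12 h to 7 d was 0.89 (SE 0.55; limma adjusted p = 0.931), but 0.44 without replicate 4, 0.14 without centring and −0.51 as deposited. No pair of times differed past the test. On replicates 1 and 2 alone, which read the same in both orientations, the difference from 2 d to 7 d was 1.28 (SE 0.66; limma adjusted p = 0.879). When centred, both values of 2 d were at −1.04 or below and both of 7 d just above 0. Before centring they were −1.24 and −1.86 at 2 d and −0.63 and −0.58 at 7 d. The share of all probes that part in the same way was not computed. With all arrays as deposited the difference was 0.26.

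Miox was ordered 2 d, 12 h, 7 d, but its means lay within their spread. The differences were −0.02 from 12 h to 2 d, 0.13 from 2 d to 7 d and 0.11 from 12 h to 7 d (limma adjusted p = 0.997, 0.984 and 0.984). No other gene of the set had 3 arrays at every time with 1 probe. Of the 658 probes compared, 0 passed in any pair of times (0%) in limma. At an unadjusted p under 0.05 there were 20 between 12 h and 2 d, 13 between 2 d and 7 d and 26 between 12 h and 7 d, or 3.04%, 1.98% and 3.95%.

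The rest of carbohydrate metabolism was read thinly. Of 18 symbols listed for glycolysis, 11 were on the array under 1 symbol. Those tested were 2 at 12 h, both above 0 with a median of 0.13 when turned and 1 on each side with a median of −0.049 as deposited, and 5 at 2 d, with 2 above and 3 below and a turned median of −0.092. The 1 tested at 7 d was Ald1. Over all tested probes, 45.1% had a mean above 0 at 12 h and 41.7% at 2 d, and the median was −0.05 and −0.06. As deposited, all 5 glycolytic genes of 2 d were below 0, with a median of −0.29, where 50.8% of all tested probes had a mean below 0. No gene of any carbohydrate list passed limma at any time, in either orientation.

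Ald1, aldolase, which makes the triose phosphates, read −0.0045, −0.75 and 0.12 on replicates 1 to 3 of 2 d, a mean of −0.21 ± 0.47 (SD, n = 3). It was lowest on replicate 2, as Gapdh1 and Tpi were, and without that array its mean was 0.059. As deposited the 2 d mean was −0.29 ± 0.40 (SD). At 7 d it read −0.0075, −0.30, 1.08 and 0.73, a mean of 0.38 ± 0.64 (SD, n = 4; limma adjusted p = 0.923). The Cy3 arrays alone were high, and as deposited all 4 arrays were below 0, as were 10.8% of the probes on 4 arrays of 7 d, with a mean of −0.53 ± 0.47 (SD). Pgi, glucose 6-phosphate isomerase, had a mean of 0.13 ± 0.33 at 2 d and −0.079 ± 0.35 as deposited (SD, n = 3), and without replicate 2 its turned mean was 0.32.

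Beside Taldo, 1 gene of the pentose phosphate list was on the array, CG8036, a transketolase, which works with transaldolase in the same branch. It read 0.40, 0.36 and 0.10 on replicates 1 to 3 of 2 d, a mean of 0.29 ± 0.16 (SD, n = 3; limma adjusted p = 0.995). All 3 were above 0, as were 10.7% of the probes on 3 arrays of 2 d. Taldo and CG8036 were each above 0 on both Cy5 arrays of 2 d, as were 26.7% of the probes on both, and neither gene passed. How many pairs of probes do so was not computed. As deposited the mean of CG8036 was 0.22 ± 0.28 (SD).

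In the glycogen list, 9 of 14 symbols were on the array and 4 were tested at 12 h, with 3 above 0 and Gbs-70E below and a median of 0.45 when turned. As deposited 2 were above and 2 below, with a median of −0.00064. UGP, which makes the UDP-glucose used by glycogen synthase, read 0.87, 0.64, 0.46 and 0.08 on replicates 1 to 4. Its mean was 0.51 ± 0.33 (SD, n = 4; limma adjusted p = 0.867), and all 4 arrays were above 0, as were 7.34% of the probes on 4 arrays of 12 h. As deposited its mean was 0.24 ± 0.62 (SD), with 2 arrays on each side. UGP and Gbs-70E therefore stood on opposite sides of the array median on every array of 12 h. Without centring Gbs-70E was above 0 on 2 of these arrays, so their opposite signs rest on the centring. The share of probe pairs that do the same was not computed. At 2 d UGP had a mean of −0.0072 ± 0.18, and 0.017 ± 0.18 as deposited (SD, n = 4), with −0.012 turned without replicate 2. Glyp, glycogen phosphorylase, had a mean of 0.59 ± 0.96 at 12 h (SD, n = 4) and −0.64 ± 0.92 as deposited. Turned, it read −0.08, −0.01, 1.98 and 0.50 on replicates 1 to 4, highest on replicate 3, where the gap between spots was largest. The mean of flw, a catalytic subunit of protein phosphatase 1, was 0.39 ± 0.65 at 12 h and −0.16 ± 0.78 as deposited (SD, n = 3). On replicates 2 to 4 flw read 0.34, 1.05 and −0.24 when turned, so it too was highest on replicate 3.

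Next to Miox, the only gene of the inositol and polyol list tested was CG9391, an inositol monophosphatase by its family, with a mean of −0.18 ± 0.69 at 7 d and 0.44 ± 0.48 as deposited (SD, n = 3). Without replicate 4 its turned mean was 0.20. Of the sugar transport list, sut2 was tested at 12 h, where it had a mean of −0.64 ± 0.42 (SD, n = 4; limma adjusted p = 0.867) with all 4 arrays below 0. Of the probes on 4 arrays of 12 h, 9.79% were likewise below 0 on all. The mean of sut2 as deposited was 0.06 ± 0.85 (SD). Gpdh1, glycerol 3-phosphate dehydrogenase, which draws on the triose phosphate that Tpi shares, was read on 11 arrays. Its turned means were 0.25 ± 0.86, −0.20 ± 0.84 and 0.34 ± 0.98 at 12 h, 2 d and 7 d (SD, n = 4, 4 and 3), and without replicate 2 the 2 d mean was 0.066 and without replicate 4 the 7 d mean 0.58. At 12 h it read −0.48, −0.15, 1.48 and 0.14 on replicates 1 to 4 when turned, highest on replicate 3. As deposited, the means at 12 h and 7 d were −0.56 ± 0.63 and −0.56 ± 0.82 (SD). In that orientation Gpdh1 was below 0 on all 4 arrays of 2 d, as were 14.7% of the probes on 4 arrays, with a mean of −0.72 ± 0.27 (SD; limma adjusted p = 0.264). Men-b and Mdh1, which make pyruvate and oxaloacetate from malate, had means of 0.28 ± 0.24 and 0.43 ± 0.55 at 12 h, and −0.071 ± 0.39 and 0.35 ± 0.62 as deposited (SD, n = 4 each).

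**Figure D5:**
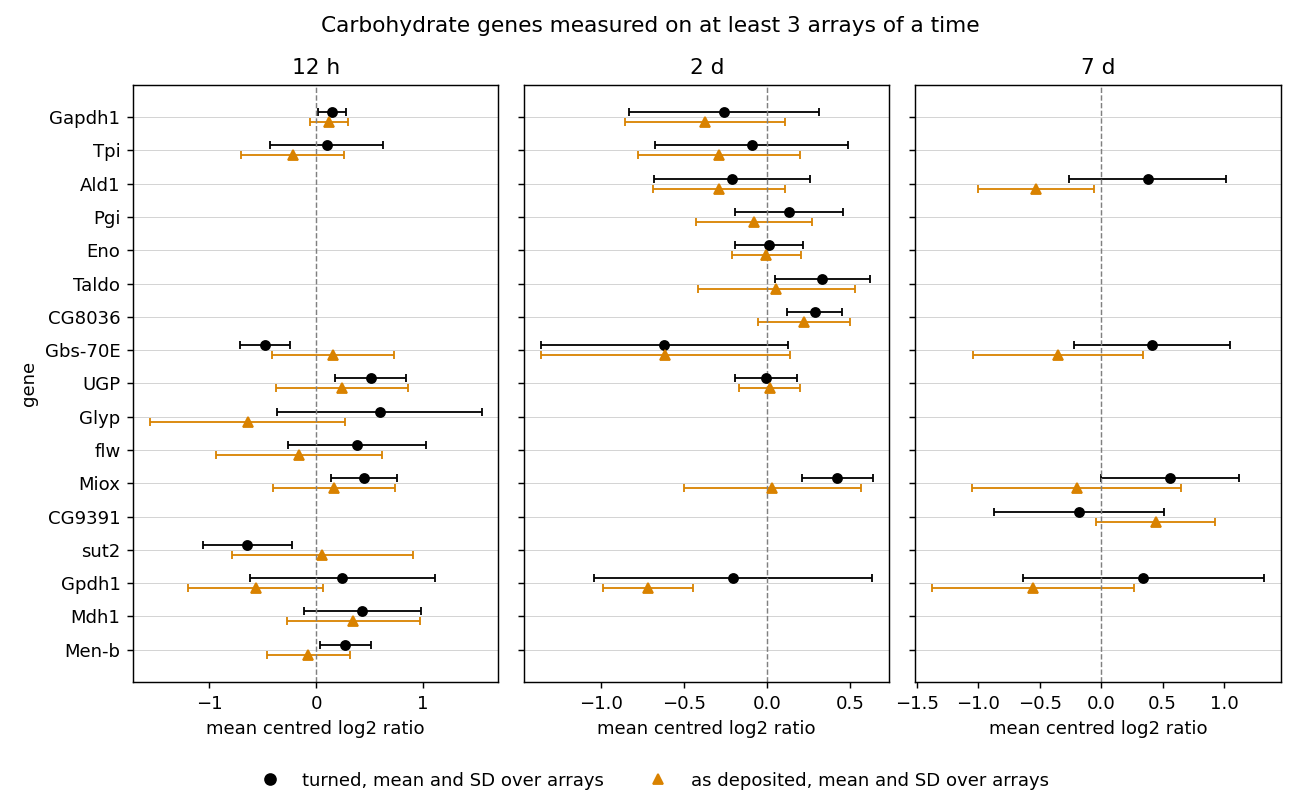
Mean centred log2 ratio on the x axis with bars of 1 SD over arrays, for the carbohydrate genes named in the text with at least 3 arrays at 12 h, 2 d or 7 d; circles are turned to treated over control and triangles are as deposited. For Gbs-70E at 2 d both symbols coincide, while for Glyp at 12 h, Gpdh1 at 12 h and Ald1 at 7 d they lie on opposite sides of 0.

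The head origin comes from the labels. Markers of head cell types were read beside the genes, but the arrays give ratios and no levels, so they cannot show the origin. Of 6 photoreceptor markers on the array, Arr1, trpl, inaC and inaD were measured on all 4 arrays of 12 h. Their means lay above 0 for 3 and below 0 for 1, with a median of 0.33 turned and −0.11 as deposited, and none passed. Turned, inaC had a mean of 0.66 ± 0.41, trpl of 0.52 ± 0.76, inaD of 0.14 ± 0.29 and Arr1 of −0.14 ± 0.48 (SD, n = 4 each). The mean of trpl leans on replicate 3, at 1.63, with −0.06, 0.37 and 0.13 on replicates 1, 2 and 4. For inaC all 4 arrays were above 0, as were 7.34% of the probes on 4 arrays of 12 h. It was among the 58 probes with an unadjusted p under 0.05 in limma, which are 4.52%. As deposited the means of inaC, trpl, inaD and Arr1 were −0.18 ± 0.84, −0.36 ± 0.88, 0.16 ± 0.28 and −0.040 ± 0.51 (SD), and that of Miox 0.17. At 2 d, where Miox had a mean of 0.42, only inaC was measured, with a mean of −0.045 ± 0.50, −0.15 ± 0.47 as deposited (SD, n = 3) and 0.24 without replicate 2. Of the genes listed for fat body, a tissue that stores glycogen, Yp2 and apolpp had means of −0.17 ± 0.10 and −0.12 ± 0.78 at 12 h, and −0.026 ± 0.22 and −0.57 ± 0.44 as deposited (SD, n = 4 each). Yp2 is a yolk protein gene and the heads were male, so it says little about the amount of fat body. The neuron markers nSyb and Appl were read on 2 arrays and 1 array in all, so the neuronal part of the heads could not be followed. Gs2, a glial marker, had a mean of −0.16 ± 0.40 at 12 h and −0.27 ± 0.31 as deposited (SD, n = 4). Obp19d, of the antenna, had −0.16 ± 0.11 at 2 d and −0.081 ± 0.19 as deposited (SD, n = 4). The muscle markers Act88F and Mlc2 had means of 0.20 ± 0.44 at 12 h and 0.34 ± 0.70 at 7 d, and −0.16 ± 0.46 and −0.54 ± 0.51 as deposited (SD, n = 4 each). The haemocyte markers had no value at 12 h or 2 d. No marker passed the adjusted test in limma, and their part in the values of Gbs-70E and Miox was not tested.

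Across arrays, the glycolytic genes varied together with many other probes. Gapdh1 and Tpi had a Pearson r of 0.75 (n = 9 arrays) when turned, and the probes of Gapdh1 one of 0.69 (n = 6). Gapdh1 had 0.75 with Gbs-70E (n = 8) and −0.32 with Taldo (n = 8). Gbs-70E and Miox had 0.46 turned and −0.09 as deposited (n = 11). Arrays share their dye, depth and centring among all probes, so these values describe these arrays and no more.

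Turned, the likest of the other probes with 1 symbol were found among those sharing at least 9 arrays with a gene, or 7 for Taldo. For Gapdh1 they were CG10019, tai and SPE, with r of 0.94, 0.91 and 0.90 (n = 9), where the median of its 35 candidates was 0.69. For Tpi they were eIF4A, SPE and Oda, with r of 0.94, 0.92 and 0.91 (n = 10), against a median of 0.65 over 82. For Gbs-70E they were MED26, Sesn and Scamp, with r of 0.87, 0.87 and 0.85 (n = 9, 10 and 9), and for Miox Ubi-p5E, ND-B17.2 and CG14292, with r of 0.89, 0.89 and 0.85 (n = 9, 10 and 9). The medians over 92 candidates were 0.53 and 0.51. For Taldo no probe came close: CG31781, CAH1 and CG3713 led with 0.45, 0.44 and 0.42 (n = 7, 8 and 7), against a median of 0.03 over 87. Eno shared too few arrays with any probe. As deposited the same 3 led for Gapdh1, and eIF4A and SPE for Tpi with COX4 in place of Oda. Gbs-70E kept MED26 and Scamp, with Jon66Cii in place of Sesn. For Miox the leading probes were all different, namely inaC, RpL15 and CG11089, with r of 0.88, 0.84 and 0.84 (n = 9 each). For Taldo they were Doa, CG3713 and Miox, with r of 0.50, 0.49 and 0.47 (n = 7 each).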

How the data were processed

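Pooled heads of treated and control flies were compared on two-colour cDNA arrays. The deposited table holds log2 ratios from the authors' ratio-based normalization in Acuity after GenePix quantification, per the series design text. Dim, saturated, flagged or uneven spots had been removed, per the same text. The log base was read from the values, and none of the sources used here states which way the ratio runs.

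Adjacent spots (2 per probe) were averaged, each array was centred on its median, and arrays with the treated sample in Cy3 were turned. Probes on at least 3 of 4 arrays were tested per time with limma 3.58.1 in R 4.3.3 (intercept model, two-sided), between times when each time had at least 3 arrays, and over all times with at least 9 arrays, with Benjamini-Hochberg adjustment over all probes tested and a threshold of 0.05. The fits per time were tested on simulated data with changes of known size. At each time 67, 67 and 66 probes were raised by 1, 2 and 4 log2 units, with noise drawn independently for each probe. Among the unchanged probes 6, 6 and 4 passed at 12 h, 2 d and 7 d. Of changes of 1 log2 unit, 20.9% to 28.4% passed, depending on the time. Of changes of 2 log2 units 62.7% to 71.6% passed, and of 4 log2 units 87.9% to 97.0%. Most changes of 1 log2 unit would thus be missed. Shared array and dye effects were not simulated and many probes were raised at once, so these shares may be too high for a few changed genes. The number of arrays limits the precision.

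Genes were named from probes with 1 symbol (7558 probes, 7447 of them updated through Entrez identifiers; 51 had several symbols and 6215 none). The genes, lists and markers were chosen with earlier results of these data known. Text names all 6 genes, up to 4 tested genes of each list by smallest p, and the 3 likest probes. Replicate numbers came from labels on 8 arrays and from accession order on 4, and the labels call the replicates biological. The source labels of 2 arrays call both channels untreated, and their treatment protocols settled the dye. Alternatives covered orientation, centring, scaling, filters, spots, a dye term, a SAM-type test and left-out replicates. No sequences were used here.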

Additional observations from a re-analysis of the deposited data

How the results depend on the processing

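The direction of the ratios turned the most signs. As deposited, 29 probes passed over all arrays, none of them one of the 6 genes. As deposited, means of opposite sign were −0.22 for Tpi and 0.16 for Gbs-70E at 12 h, −0.004 for Eno at 2 d, and −0.10 for the other Gapdh1 probe, −0.35 for Gbs-70E and −0.20 for Miox at 7 d. The same held for Gapdh1 (−0.29) and Tpi (−0.34) over all arrays, for Gbs-70E from 12 h to 7 d (−0.51), and for Miox from 2 d to 7 d (−0.23) and from 12 h to 7 d (−0.37). Without centring, 10 probes passed at 7 d, and signs were opposite for Gbs-70E at 12 h (0.028), Eno at 2 d (−0.18), the other Gapdh1 probe at 7 d (−0.30) and Miox from 2 d to 7 d (−0.019) and 12 h to 7 d (−0.65). Centring on probes of at least 9 arrays, chosen after seeing the data, gave −0.074 for Eno at 2 d and −0.035 for the other Gapdh1 probe at 7 d. With arrays scaled to 1 spread, Tpi at 2 d was 0.038. On Cy5 arrays alone Tpi at 12 h was −0.12 and the other Gapdh1 probe at 7 d −0.031. Leaving out 7 d put Gapdh1 at −0.084. With only spots within 1 log2 unit, 3 probes passed at 12 h and 1 at 7 d. The cause was not tested.

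Leaving out 1 replicate kept the counts of probes passed at 0. At 12 h it gave −0.10 to 0.31 for Tpi. At 2 d it gave −0.43 to 0.014 for Gapdh1, −0.23 to 0.20 for Tpi, −0.089 to 0.12 for Eno and −0.90 to −0.35 for Gbs-70E. At 7 d it gave −0.023 to 0.23 for the other Gapdh1 probe, 0.05 to 0.60 for Gbs-70E and 0.27 to 0.83 for Miox. Between 12 h and 2 d it gave −0.51 to 0.13 for Gbs-70E and −0.15 to 0.14 for Miox. For Gbs-70E it gave 0.44 to 1.18 from 12 h to 7 d, where the value without centring was 0.14. For Miox it gave −0.18 to 0.33 from 2 d to 7 d and −0.32 to 0.47 from 12 h to 7 d. Gbs-70E at 12 h (−0.58 to −0.39) and Miox at 12 h (0.36 to 0.60) and 2 d (0.33 to 0.50) kept their sign.

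The replicate block used only replicates 1 and 2. Pairing by number was not shown: same-numbered arrays correlated at 0.0039 to 0.188, with 1 pair of the 6 under 0.1. Differently numbered arrays correlated at 0.0852 to 0.179, with pairs at 0.0852, 0.0933 and 0.0940 under 0.1. With and without the block, 0 probes passed, over 640 and 657 probes, and Miox differed by −0.18 from 2 d to 7 d and −0.34 from 12 h to 7 d. The smallest false discovery rates of the SAM-type test were 0.475, 0.5 and 0.939 at 12 h, 2 d and 7 d. Spots that failed the authors' filters have no value, and Eno, Taldo and most listed genes had few arrays.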
